A study of Homo sapiens with 6 samples.

Results

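Gap junctions are channels that join the cytoplasm of neighbouring cells and let ions and small metabolites pass between them. Each channel is built of connexins, which assemble into a hexameric hemichannel in one cell that docks with a hemichannel of the next cell. Stratified oral epithelium and skin use several connexins at once, Gja1 (Cx43) and Gjb2 (Cx26) among them, and loss of connexins is a common observation in squamous tumours. Pannexins resemble connexins in shape but not in sequence, and Panx1 forms a channel in the plasma membrane that releases ATP.

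Described here are 6 genes, the connexin genes Gja1, Gjb2, Gjb5, Gjb6 and Gjc1 and the pannexin gene Panx1, picked by symbol from a table of 21872 genes. Of the 6, 4 held enough counts to enter the test over 12293 genes. Gjb5 and Gjb6 did not. Some of the remaining 17 connexin and pannexin genes of the table are described beside them.

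The cells were of the line MOC2, derived from an oral squamous cell carcinoma of the mouse, and gave 3 HuR knockout libraries and 3 control libraries; both groups had been transduced with lentiviral CRISPR/Cas9 particles, directed at HuR in the first and serving as control in the second. HuR, encoded by Elavl1, is an RNA-binding protein that stabilises many mRNAs with AU-rich elements. The labels describe isolation of a single clone for HuR loss, with no word of separate clones or cultures. The p-values therefore rest on a library-to-library spread that may be partly technical. If all 3 knockout libraries come from a single clone, a trait of that clone and loss of HuR cannot be told apart in any difference given here. The genotype labels read knockout although the titles read KD, and the species label is human although the gene symbols and the series title are those of mouse.

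The libraries held between 16158516 and 21294330 counts. Values are given as CPM, the usual count unit relative to the scaled library total. Elavl1 mRNA had 116, 114 and 105 CPM in knockout libraries 1, 2 and 3, against 107, 120 and 117 CPM in control libraries 1, 2 and 3 (log2 fold change -0.04, adjusted p = 0.82 by edgeR), which does not check the labels, since an edited gene can keep its mRNA level. Knockout library 3 stood apart: its log2 CPM correlated with those of knockout libraries 1 and 2 at 0.924 and 0.931, against 0.978 between these 2 and at least 0.987 between control libraries (Pearson's r; the genes it runs over are not independent). The fold changes of Gja1, Gjb2, Gjc1 and Panx1 are therefore given with and without it, as are those of Cdh2, P2rx4 and Lrrc8a. Of the 12293 genes tested, 35.7% changed, 20.3% being higher and 15.4% lower in knockout, so that a change in a given gene was common in this comparison.

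Among the 4 members tested, 2 were lower in knockout, Gjb2 and Gja1, none was higher, and Gjc1 and Panx1 did not pass the test. The median log2 fold change of the 4 was -0.89, against 0.03 over all genes tested. The threshold was an adjusted p of 0.05 over all genes. The libraries of the groups did not overlap for the same 2 of the 4 members, where this held for 57.6% of all genes tested.

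**Figure D1:**
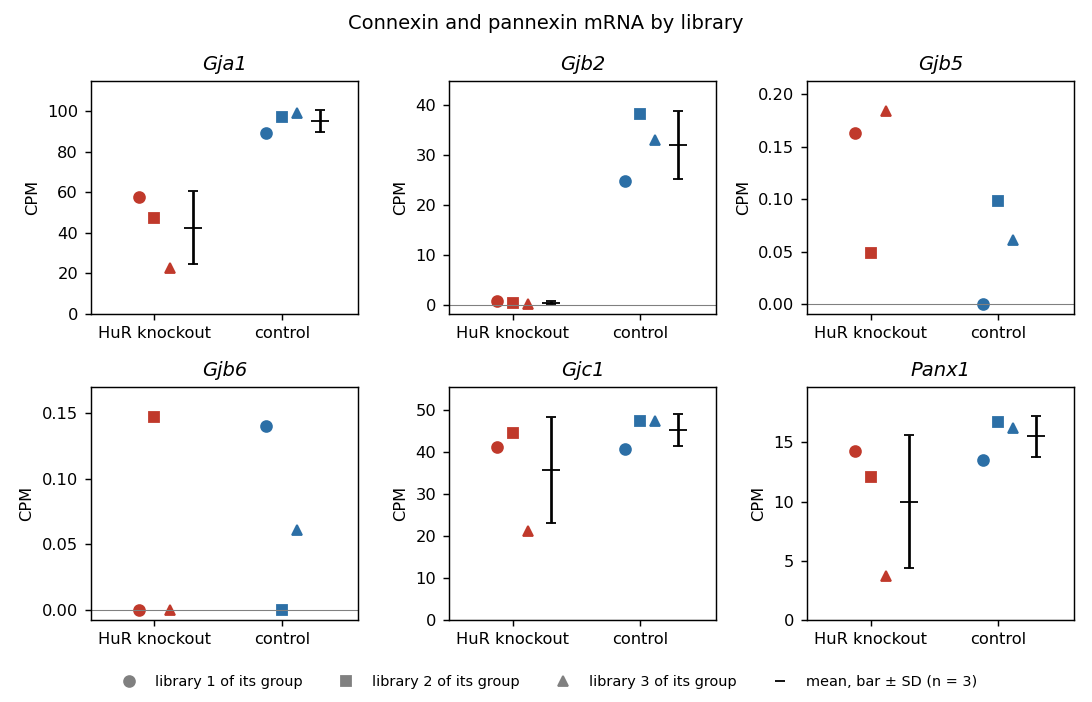
CPM of the 6 genes (vertical axes, each including 0, with its own scale) in HuR knockout and control libraries, 1 symbol per library, with the mean ± SD (n = 3) for the 4 genes tested. Gja1 and Gjb2 lie lower in every knockout library than in any control library, Gjc1 and Panx1 are low in knockout library 3, and Gjb5 and Gjb6 stay below 0.2 CPM throughout.

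Gjb2, the connexin Cx26 of skin and inner ear epithelia, was nearly lost. It had 0.763, 0.343 and 0.306 CPM in knockout libraries 1, 2 and 3, and 24.7, 38.2 and 32.9 CPM in control libraries 1, 2 and 3. Every knockout library lay far below every control library. In counts this was 26 reads over the knockout group against 1847 over the control group, so the transcript remained detectable in each knockout library. Gjb2 entered the test through its control counts, since 14, 7 and 5 reads in knockout libraries 1, 2 and 3 were too few. It could therefore only be called lower. The means were 0.471 ± 0.254 CPM in knockout and 31.9 ± 6.8 CPM in control (SD, n = 3 each). Gjb2 fell 66.8-fold (log2 fold change -6.06, SE 0.40, 95% interval -7.01 to -5.11, adjusted p = 0.000331 by edgeR). Without knockout library 3 the log2 fold change was -5.86 (adjusted p = 2.87e-05 by edgeR), and under 13 alternatives it lay between -6.59 and -5.86 and passed each time.

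Gja1, the widely expressed connexin Cx43, fell less. It had 57.7, 47.2 and 22.4 CPM in knockout libraries 1, 2 and 3, against 89.2, 97 and 99.3 CPM in control libraries 1, 2 and 3. The groups did not overlap, and knockout library 3 was the lowest. The means were 42.4 ± 18.1 CPM in knockout and 95.2 ± 5.31 CPM in control (SD, n = 3 each), a 2.24-fold decrease (log2 fold change -1.16, SE 0.33, 95% interval -1.94 to -0.38, adjusted p = 0.0332 by edgeR). Without knockout library 3 the decrease was smaller and its spread too, with a log2 fold change of -0.86 (SE 0.118, adjusted p = 0.000678 by edgeR). The call did not hold when control library 1, 2 or 3 was left out (adjusted p = 0.0809, 0.0926 and 0.0946 by edgeR) or without knockout library 2 (adjusted p = 0.0675), each time with a log2 fold change of -1.16 or lower.

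Gjc1, the connexin Cx45 best known from the conduction tissue of the heart and from smooth muscle, did not differ detectably. It had 41.2, 44.6 and 21.1 CPM in knockout libraries 1, 2 and 3 and 40.8, 47.5 and 47.4 CPM in control libraries 1, 2 and 3. Knockout libraries 1 and 2 lay within the range of the control libraries, and knockout library 3 lay below it. The log2 fold change was -0.34 (95% interval -1.01 to 0.33, adjusted p = 0.377 by edgeR), and -0.07 without knockout library 3 (adjusted p = 0.628).

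Panx1 was likewise lowest in knockout library 3. It had 14.3, 12.1 and 3.67 CPM in knockout libraries 1, 2 and 3, against 13.5, 16.7 and 16.2 CPM in control libraries 1, 2 and 3. Only knockout library 3 was far from the control libraries, and the highest knockout library exceeded the lowest control library. The log2 fold change of -0.63 did not pass (95% interval -1.73 to 0.48, adjusted p = 0.329 by edgeR), nor did that of -0.23 without knockout library 3 (adjusted p = 0.283). The intervals of Gjc1 and Panx1 with all libraries both include no change and a 2-fold decrease.

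Gjb5 and Gjb6 were at the limit of detection in both groups. The row of Gjb5, the epidermal connexin Cx31.1, is among 1704 rows that are 0 in control library 1 and hold only multiples of 11 elsewhere, and was divided by 11. It then held 3, 1 and 3 reads in knockout libraries 1, 2 and 3 and 0, 2 and 1 reads in control libraries 1, 2 and 3. The ratio of the summed reads, per scaled total, was 2.46 with an exact 95% counting interval of 0.563 to 14.8. The deposited values were 33, 11 and 33 in knockout and 0, 22 and 11 in control, and with them Gjb5 entered the test without passing it (log2 fold change 1.31, adjusted p = 0.415 by edgeR). Gjb6, the connexin Cx30 that can share channels with Cx26, held 3 reads, all in knockout library 2, against 4 reads in control, 3 in library 1 and 1 in library 3 (ratio 0.792, counting interval 0.116 to 4.68). These intervals cover counting error only, and neither gene's level could be compared between the groups at this depth.

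Of the 17 other connexins and pannexins, 3 held enough counts to test, and those besides Gja4 are not reported here. Gja4 is the endothelial connexin Cx37. It had 0.545, 0.147 and 0.674 CPM in knockout libraries 1, 2 and 3 and 0.468, 0.246 and 0.547 CPM in control libraries 1, 2 and 3. These were 24 reads in each group, and the groups overlapped (log2 fold change 0.10, adjusted p = 0.917 by edgeR, with a direction that turned under 5 of 13 alternatives). In the human RefSeq gene table (GRCh38.p14), GJB2 and GJB6 follow each other with 0 genes between them. Of this pair, Gjb2 was the well-counted gene in these mouse cells and Gjb6 was hardly detected.

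No read was found in any library for 5 family genes, Gja10, Gjb1, Gjd2, Gjd4 and Gje1, which over each group allows at most 0.0545 CPM in knockout and 0.0516 CPM in control (3 reads). Gja6 had 0.381, 0 and 0.245 CPM in knockout libraries 1, 2 and 3 and 0.0468, 0.196 and 0 CPM in control libraries 1, 2 and 3. Gjd3 had 0.327, 0.343 and 0.245 CPM in knockout libraries 1, 2 and 3 and 0.187, 0.344 and 0 CPM in control libraries 1, 2 and 3. Both overlapped between the groups and held too few counts to test. Summed over the 6 genes Gja1, Gjb2, Gjb5, Gjb6, Gjc1 and Panx1, CPM lay between 47.7 and 114 in knockout and between 168 and 199 in control.

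**Figure D2:**
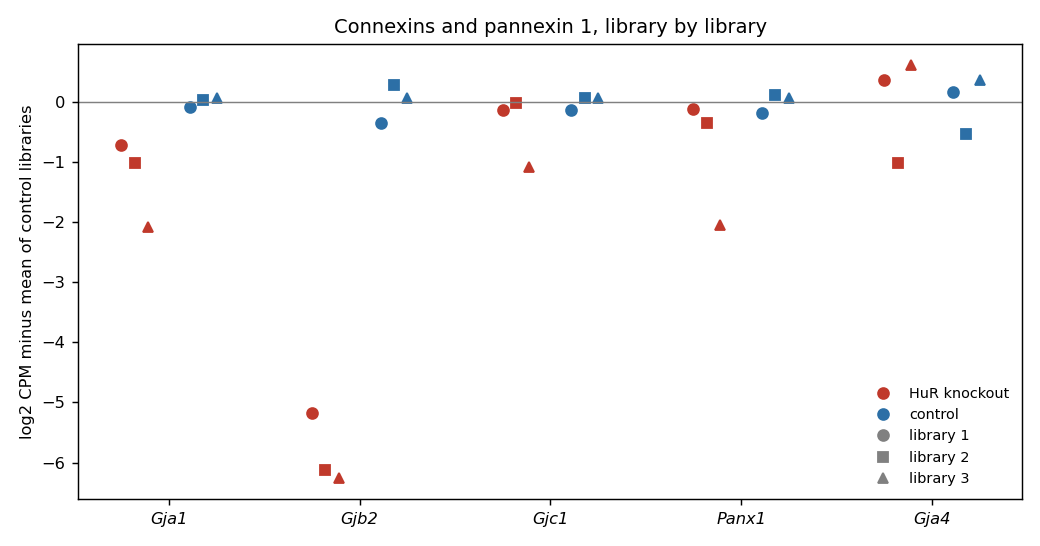
Log2 CPM of Gja1, Gjb2, Gjc1, Panx1 and Gja4 in each library, relative to the mean of the control libraries (vertical axis), HuR knockout left and control right for each gene. In knockout Gjb2 lies between -6.26 and -5.18 and Gja1 between -2.08 and -0.72, while Gjc1 and Panx1 leave the control range mainly in knockout library 3 and Gja4 scatters around 0.

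Knockout library 3 was the lowest of the knockout libraries in Gja1, Gjb2, Gjc1 and Panx1, but not in Gja4. The same library was the lowest for 41.6% of all genes tested and for 50.5% of the genes that were lower in knockout. The part that whatever sets this library apart has in the values of Gjc1 and Panx1 was not tested.

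Ratios of counts within a library do not depend on how libraries are scaled, and the pairs given here were picked with the values in view. The ratio of Gjb2 to Gja1 reads was 0.0132, 0.00727 and 0.0137 in knockout libraries 1, 2 and 3 and 0.277, 0.394 and 0.331 in control libraries 1, 2 and 3. Relative to Gja1, Gjb2 was lower in each knockout library than in any control library. The ratio of Gjc1 to Gja1 reads was 0.715, 0.945 and 0.943 in knockout libraries 1, 2 and 3 and 0.458, 0.49 and 0.477 in control libraries 1, 2 and 3, higher in each knockout library than in any control library. The ratio of Panx1 to Gja1 reads averaged 0.222 in knockout and 0.162 in control, and the groups overlapped. Transcript lengths differ between these genes, so a ratio says how a pair shifted between libraries and not which gene was more abundant.

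**Figure D3:**
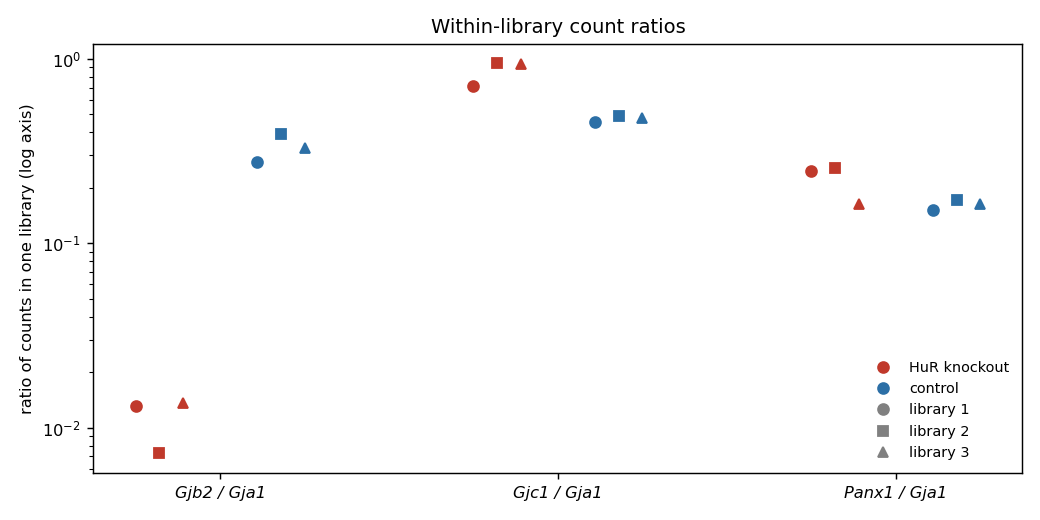
Ratio of the counts of 2 genes within each library (vertical log axis, no unit), HuR knockout left and control right for each pair. The Gjb2 to Gja1 ratio is at most 0.0137 in knockout and at least 0.277 in control, the Gjc1 to Gja1 ratio is higher in every knockout library, and the Panx1 to Gja1 ratio overlaps between the groups.

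The tested genes with profiles most like each member were found by the root-mean-square difference of log2 CPM, relative to each gene's control mean, over 6 libraries among 10295 genes averaging 5 CPM or more. For Gja1 they were Cadm1 (0.0731), Cklf (0.118) and Nop56 (0.12). For Gjb2 they were Tceal8 (0.397), Adam22 (0.435) and Fermt1 (0.47). The log2 fold changes of these 3 were -5.59, -5.89 and -5.44. For Gjc1 they were Psmd6 (0.0365), Dek (0.0372) and Rbbp7 (0.0512), and for Panx1 E2f2 (0.0675), Rtel1 (0.0969) and Atad2 (0.109). Between the members, the profiles of Gja1 and Panx1 differed by 0.371 and those of Gjc1 and Panx1 by 0.41, and the Gjb2 profile lay at least 3.26 from those of Gja1, Gjc1 and Panx1. These values describe the profiles over the libraries and carry no test.

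Connexins are held at the membrane by scaffold and junction proteins, phosphorylated by kinases that alter channel gating and turnover, and removed by ubiquitin ligases and endosomal sorting. Of 26 such genes, all tested, 9 fell, 4 rose and 13 did not pass, with a median log2 fold change of -0.43. Changed members made up 13 of the 26, where 35.7% of all genes tested changed.

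Most junction partners that changed were lower in knockout. Cdh1, which encodes E-cadherin of the adherens junction, had 66.6, 30.7 and 36.7 CPM in knockout libraries 1, 2 and 3 and 684, 557 and 556 CPM in control libraries 1, 2 and 3, a 13.4-fold decrease (adjusted p = 0.000694 by edgeR). The zonula occludens gene Tjp1, whose product binds the tail of Cx43, averaged 231 ± 17.1 CPM in knockout and 346 ± 27.2 CPM in control (SD, n = 3 each; log2 fold change -0.58, adjusted p = 0.0138 by edgeR). Its relative Tjp3 had 2.23, 1.08 and 0.857 CPM in knockout libraries 1, 2 and 3 and 18.8, 8.2 and 12.2 CPM in control libraries 1, 2 and 3, a 9.34-fold decrease (adjusted p = 0.00389 by edgeR). Pkp2, a desmosomal plakophilin, and Dbn1, which encodes the actin-binding drebrin, fell 3.02-fold and 2.55-fold (adjusted p = 0.0107 and 0.00421 by edgeR). Ctnnb1, which encodes beta-catenin, fell 1.55-fold (adjusted p = 0.015 by edgeR). Cdh2, which encodes N-cadherin, had 101, 117 and 44.8 CPM in knockout libraries 1, 2 and 3 and 94.4, 113 and 110 CPM in control libraries 1, 2 and 3, and did not pass (log2 fold change -0.27, adjusted p = 0.556 by edgeR; 0.04 without knockout library 3, adjusted p = 0.787). Tjp1 did not pass without control library 3 (adjusted p = 0.0646), nor did Ctnnb1 with control library 1, 2 or 3 left out (adjusted p = 0.0601, 0.0575 and 0.0593 by edgeR).

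Kinases known to phosphorylate Cx43 moved in both directions where they changed, and several did not pass. Among the latter were Prkcd, Mapk7, Csnk1d and Akt1 (adjusted p = 0.101, 0.171, 0.836 and 0.136 by edgeR). Src, a tyrosine kinase that closes Cx43 channels, averaged 82 ± 2.56 CPM in knockout and 175 ± 19.5 CPM in control (SD, n = 3 each), a 2.13-fold decrease (adjusted p = 0.00154 by edgeR). Mapk3 (ERK1) averaged 218 ± 22.3 CPM in knockout and 89.5 ± 13.9 CPM in control and rose 2.44-fold (adjusted p = 0.00196 by edgeR). Prkca, protein kinase C alpha, rose 1.79-fold (adjusted p = 0.0152 by edgeR; 0.0686 without control library 2). Cav1, which encodes caveolin-1, rose 2.49-fold to 390 ± 49 CPM in knockout, against 157 ± 18.8 CPM in control (adjusted p = 0.00164 by edgeR).

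Of the turnover genes, Tsg101, a component of endosomal sorting, fell 1.56-fold (adjusted p = 0.0121 by edgeR; 0.0523 without control library 1 and 0.0501 without control library 2). Nedd4, a ubiquitin ligase of Cx43, averaged 1283 ± 201 CPM in knockout and 918 ± 27.9 CPM in control (SD, n = 3 each; adjusted p = 0.0457 by edgeR), and passed under 6 of 13 alternatives, with adjusted p up to 0.188.

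ATP released through Panx1 and other channels is sensed by P2 receptors at the cell surface. Of 28 genes of ATP release and sensing, 12 were tested, of which 5 fell, 2 rose and 5 did not pass, with a median log2 fold change of 0.29. The 7 changed genes are 7 of the 12, again beside 35.7% of all genes tested. Among the 7, P2ry1 and P2rx3 entered the test only through the group where each was high, so the direction of their calls was fixed. The other 16 had too few counts, among them P2rx7, whose channel is often described as acting with Panx1. P2rx7 had at most 0.98 CPM in knockout and 0.295 CPM in control.

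Both G protein-coupled P2Y receptor genes that could be tested fell, P2ry1 with 9 reads over the knockout group against 237 over the control group. P2ry2, a receptor for ATP and UTP on epithelial cells, had 4.74, 2.89 and 2.45 CPM in knockout libraries 1, 2 and 3 and 37, 31.7 and 26.4 CPM in control libraries 1, 2 and 3. It fell 9.42-fold (log2 fold change -3.24, SE 0.30, adjusted p = 0.000775 by edgeR). P2ry1, a receptor for ADP, had 0.381, 0.049 and 0.0612 CPM in knockout libraries 1, 2 and 3 and 4.35, 3.78 and 4.07 CPM in control libraries 1, 2 and 3. It fell 23.9-fold (adjusted p = 0.00321 by edgeR), with a log2 fold change of -4.58, and of -6.06 without knockout library 1. Of the ion channel receptors, P2rx4 had 23.3, 24.9 and 44.9 CPM in knockout libraries 1, 2 and 3 and 20.4, 19 and 18.2 CPM in control libraries 1, 2 and 3, and did not pass (log2 fold change 0.69, adjusted p = 0.0908 by edgeR) although the groups did not overlap. Without knockout library 3 the log2 fold change of P2rx4 was 0.33 (adjusted p = 0.0572). P2rx3, a receptor of sensory neurons, was low throughout and rose to 1.67 ± 0.945 CPM in knockout, against 0.293 ± 0.217 CPM in control (adjusted p = 0.043 by edgeR); it passed under 6 of 13 alternatives.

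The subunits of the volume-regulated anion channel, which also lets ATP pass, did not move together. Lrrc8b averaged 16.6 ± 1.37 CPM in knockout and 64.2 ± 4.92 CPM in control, and Lrrc8c averaged 37.2 ± 3.78 CPM in knockout and 94.4 ± 8.94 CPM in control (SD, n = 3 each). They fell 3.88-fold and 2.53-fold (adjusted p = 0.000378 and 0.000979 by edgeR). Lrrc8e rose 1.88-fold (adjusted p = 0.016 by edgeR), a call lost without control library 2 (adjusted p = 0.077) and without control library 3 (adjusted p = 0.0786). Lrrc8a, the obligatory subunit, and Lrrc8d did not pass (adjusted p = 0.359 and 0.107 by edgeR). Lrrc8a had 17.8, 10.6 and 28.8 CPM in knockout libraries 1, 2 and 3 and 14.5, 13.3 and 14.3 CPM in control libraries 1, 2 and 3, with a log2 fold change of 0.44, and of 0.02 without knockout library 3 (adjusted p = 0.953 by edgeR).

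**Figure D4:**
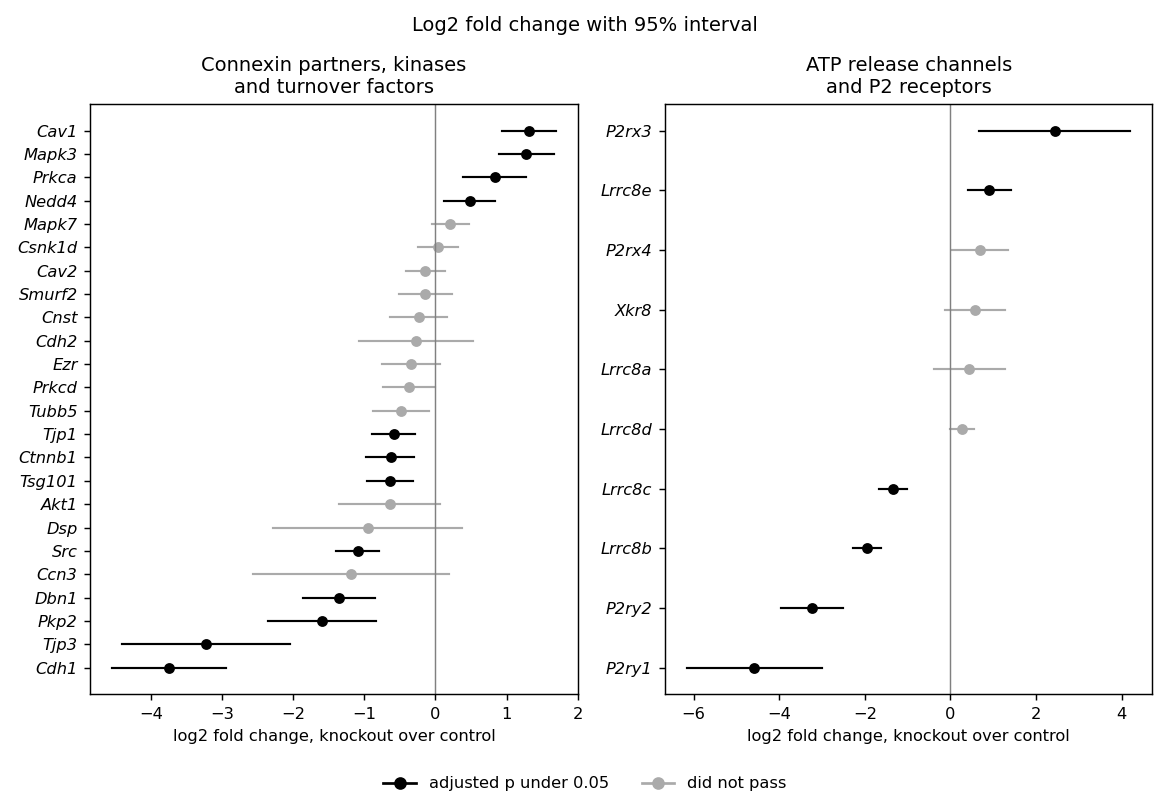
Log2 fold change of HuR knockout over control (horizontal axes) with 95% interval for tested genes of the 2 lists, a few of which are not shown, black where the adjusted p was under 0.05. The junction and kinase genes on the left run from Cdh1 at -3.74 to Cav1 at 1.32, and the ATP release and receptor genes on the right from P2ry1 at -4.58 to P2rx3 at 2.43.

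Markers of epithelial and other cells moved in the same comparison, and in bulk RNA fewer cells of a type and less RNA per cell cannot be told apart. Of 12 epithelial markers, 11 were tested, 9 fell and none rose, where 15.4% of all genes tested were lower. Epcam fell 14.7-fold, Krt18 3.82-fold and Cldn7 15.6-fold. Krt14 (log2 fold change -2.18, adjusted p = 0.0873 by edgeR) and Krt19 (0.25, adjusted p = 0.342 by edgeR) did not pass. Krt5 had too few counts to test, with 55 reads in knockout and 2 in control. The summed level of the 12 lay between 3970 and 6436 CPM in knockout and between 8051 and 9827 CPM in control. Of 10 fibroblast markers, 4 were tested and 3 rose, Col3a1, Pdgfrb and Col1a1, where 20.3% of all genes tested were higher. Pdgfrb, with 1, 1 and 0 reads in control libraries 1, 2 and 3, entered the test only through its knockout counts. It could therefore only be called higher, which limits the comparison with that share. Pdgfra did not pass (log2 fold change 0.49, adjusted p = 0.595 by edgeR). The summed level of the 10 lay between 409 and 430 CPM in knockout and between 3.73 and 8.47 CPM in control. Lum had no read, and Col1a2, Dcn and Postn stayed at 0.796 CPM or less in every library. All 8 endothelial markers stayed under 1 CPM in every library. Of the 8 leukocyte markers, Itgam, Adgre1 and Ncr1 had no read, and their summed level, between 1.76 and 36.9 CPM in knockout and between 2.41 and 6.51 CPM in control, was mostly Cd68, at 36.9 CPM in knockout library 3. The part of these shifts in the connexin values was not tested.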

How the data were processed

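The authors deposited whole-number counts per gene symbol for 6 libraries. STAR 2.7.1a, featureCounts and the build hg38 are listed per the submitters' processing notes, which state neither role nor order. No annotation, strand setting or filter is stated there (not given in the sources used here), and overlapping or near-identical genes could not be checked. Libraries were matched to groups by title and library name. The 1704 rows at 0 in control library 1 and above 0 elsewhere, all of whose values are multiples of 11, were divided by 11 before the test.

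Counts were tested in R 4.3.3 with edgeR 4.0.16 (low counts removed by filterByExpr, TMM scaling, robust quasi-likelihood test, Benjamini-Hochberg adjustment over 12293 genes, threshold 0.05). SE is the log2 fold change over the root of the test statistic. Alternatives were DESeq2 1.42.0, limma-voom (limma 3.58.1), other scaling, no filter, undivided or omitted rows, a replicate block and each library left out. Library totals of 16158516 to 21294330 counts limited the precision for genes with few counts. Within a group, no 2 libraries agreed within sampling noise (chi-square per degree of freedom of at least 8.64). A simulation of knockout against control over 12195 genes, 200 of them given a change, found 24% of 2-fold and 93% of 4-fold changes. It made 9 false calls. The adjusted p depends on the share of genes that change, and in the data 35.7% of the genes tested were called. The simulated rates therefore do not give the recovery of the test reported here. Genes and lists were chosen with earlier results of these data known. Some genes that the lists hold or that the naming rule took are not reported here. The naming rule took all family genes, up to 4 genes with the smallest p from each list, 3 like genes for each tested member and Elavl1; the other list genes in the text were picked after their values were seen. Mouse sequences, coordinates and transcript lengths were not used here.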

Additional observations from a re-analysis of the deposited data

How the results depend on the processing

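Of 13 alternatives, all kept the decrease of Gjb2, and none called Gjc1 (log2 fold change -0.53 to -0.07) or Panx1 (-0.97 to -0.23). Leaving out single libraries gave Gja1 values of -1.45 to -0.86, with the call lost in 4 of 6 fits (adjusted p = 0.0675 to 0.0946 by edgeR). The number of members changed was then 1 to 2, that of ATP release and sensing genes 4 to 7, and that of all genes 2312 to 6021. Gja4, never called, was at -0.07 by limma-voom, at -0.01 with the replicate block and between -0.28 and 0.54 with single libraries left out. Each fit without a library holds fewer samples; no other cause was tested. Same-numbered libraries deviated together with r = -0.05, 0.26 and 0.02, so the numbers were not taken as pairs; the replicate block called 3700 genes and the same number of members, 2 (Gja1 adjusted p = 0.04). Depth limits Gjb5, Gjb6 and the other family genes with few counts.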
